A study of Mus musculus with 72 samples.

Results

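*Ucp2* and *Ucp3*, the 2 genes described here, encode uncoupling proteins 2 and 3 of the mitochondrial inner membrane. They were taken by name as 2 of the 24237 genes of a count table of mouse heart RNA-seq, in which both had counts in all 72 libraries. The mice were C57BL/6J at 10 months of age by the study's methods (9 months by the labels), and they formed 4 conditions. Naïve *Ahr*+/+ mice came from dams given corn oil. High-dose and low-dose TCDD-exposed mice were also *Ahr*+/+, and their dams were gavaged with TCDD (a dioxin that binds the aryl hydrocarbon receptor, AHR) at 1 or 0.1 μg/kg on 3 days of gestation. The *Ahr*-/- mice, a germline knockout line crossed to C57BL/6J, came from untreated dams. Each condition held 3 libraries per sex from right atrium, left atrium and ventricles, which makes 24 groups of 3, and the 3 chambers were cut from the same hearts. The labels do not say which libraries share a heart, so values of different chambers are not independent. The labels call the material cardiomyocytes, whereas whole pieces of chamber were used, so fewer cells of a type and less RNA per cell cannot be told apart.

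Uncoupling proteins belong to the SLC25 family of mitochondrial carriers. UCP1, the member of brown fat, lets protons return across the inner membrane without making ATP, which yields heat. UCP2 is made in many tissues, including immune cells, and UCP3 mainly in skeletal muscle, heart and brown fat. Both have been linked to lowering of reactive oxygen species and to the handling of fatty acids. *Ucp3* is a known target of the fatty-acid sensing receptors of the PPAR family, as is *Pdk4*, the kinase that turns pyruvate dehydrogenase off when fat is burned.

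The genes lie side by side on mouse chromosome 7 (GRCm38, the NCBI name of mm10), both on the plus strand. *Ucp3* spans chr7:100472991-100486432 and *Ucp2* chr7:100493337-100499629, with 6904 bases between the end of *Ucp3* and the start of *Ucp2*. Their coding regions have nearly equal length, 924 and 927 bases, so their levels can be compared per coding length almost directly. The 300 bases around each start (250 before and 50 after, RefSeq, GRCm38.p6) are shown because the study disrupts AHR, which binds DNA at the core letters GCGTG, while PPARs bind repeats of AGGTCA. The *Ucp3* window is placed around the gene start given above. The *Ucp2* window is placed around a start that lies downstream of the gene start from which the 6904 bases were counted. Capitals mark GCGTG and AGGTCA on either strand.
Ucp3 promoter, chr7:100472741-100473040, plus strand: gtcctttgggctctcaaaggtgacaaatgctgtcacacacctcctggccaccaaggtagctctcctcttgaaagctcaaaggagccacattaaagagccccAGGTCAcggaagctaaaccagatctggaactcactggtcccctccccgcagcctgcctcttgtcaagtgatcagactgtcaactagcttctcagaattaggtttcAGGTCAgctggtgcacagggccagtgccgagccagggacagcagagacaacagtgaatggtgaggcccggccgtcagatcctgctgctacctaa
Ucp2 promoter, chr7:100493108-100493407, plus strand: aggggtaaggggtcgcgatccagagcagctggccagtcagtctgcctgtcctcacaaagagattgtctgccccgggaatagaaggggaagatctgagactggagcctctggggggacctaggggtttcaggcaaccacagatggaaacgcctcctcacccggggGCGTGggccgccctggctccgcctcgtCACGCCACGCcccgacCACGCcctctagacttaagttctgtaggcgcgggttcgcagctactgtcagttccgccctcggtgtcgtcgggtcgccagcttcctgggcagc

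The *Ucp2* window held 4 copies of GCGTG or its complement, 21 CpG and 64.3% G and C. GCGTG was found in 32.4% of 32851 promoter windows of this length, and at least 4 copies in 1.33% of them. The *Ucp3* window held no GCGTG, 5 CpG and 55.0% G and C, and it carried AGGTCA 2 times. At least 2 copies were found in 1.81% of windows and at least 1 in 16.3%. *Ucp2* had no AGGTCA in its window. Neither held TATAAA, present in 13.6% of windows. A match of letters is a description and not a binding site.

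Libraries are numbered as in their labels. Library totals ranged from 11873417 to 28789382 counts. *Ucp2* had between 358 and 16773 counts in a library and *Ucp3* between 118 and 2545, so counting error is small beside the spread between libraries. Some libraries went against their labels. Of the 48 atrial libraries 8 had *Myl4*, an atrial myosin light chain, under 100 CPM (counts scaled to the library total), of the 24 ventricular libraries 7 had it over 100 CPM, and 8 libraries carried sex genes of the other sex (4 female right atrium and 4 male ventricle). Together 19 libraries were doubted in this way, and each result is also given without them where that changes it. *Bmp10*, a right atrial gene, was under 10 CPM in 9 of 24 right atrial libraries and over 10 CPM in 6 of 24 left atrial ones, so right and left could not be told apart reliably.

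*Ucp2* was the more abundant member in most libraries. Its level ranged from 24.5 to 613 CPM with a median of 145, and that of *Ucp3* from 5.30 to 125 CPM with a median of 40.1. Per coding length, *Ucp2* exceeded *Ucp3* in 63 of 72 libraries, with a median ratio of 3.58. The 9 others were 5 ventricular libraries, 3 left atrial and 1 right atrial, and they included all 3 naïve female ventricles, where *Ucp3* led with ratios of 0.588, 0.718 and 0.853. Among the 24 groups ordered by mean level, *Ucp2* ran from 403 ± 191 CPM (SD, n = 3) in female *Ahr*-/- right atrium to 48.8 ± 12.4 CPM in naïve female ventricles. The 7 lowest groups for *Ucp2* held 6 of the 8 ventricular groups. *Ucp3* ran from 75.7 ± 31.8 CPM in male high-dose left atrium to 12.8 ± 3.60 CPM in naïve male right atrium, and its 5 lowest groups held 4 of the 6 naïve groups, all but female right atrium and female ventricles. No step in either order separated neighbours, since in 23 of 23 neighbouring pairs the ranges of the 3 libraries overlapped for both genes.

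**Figure D1:**
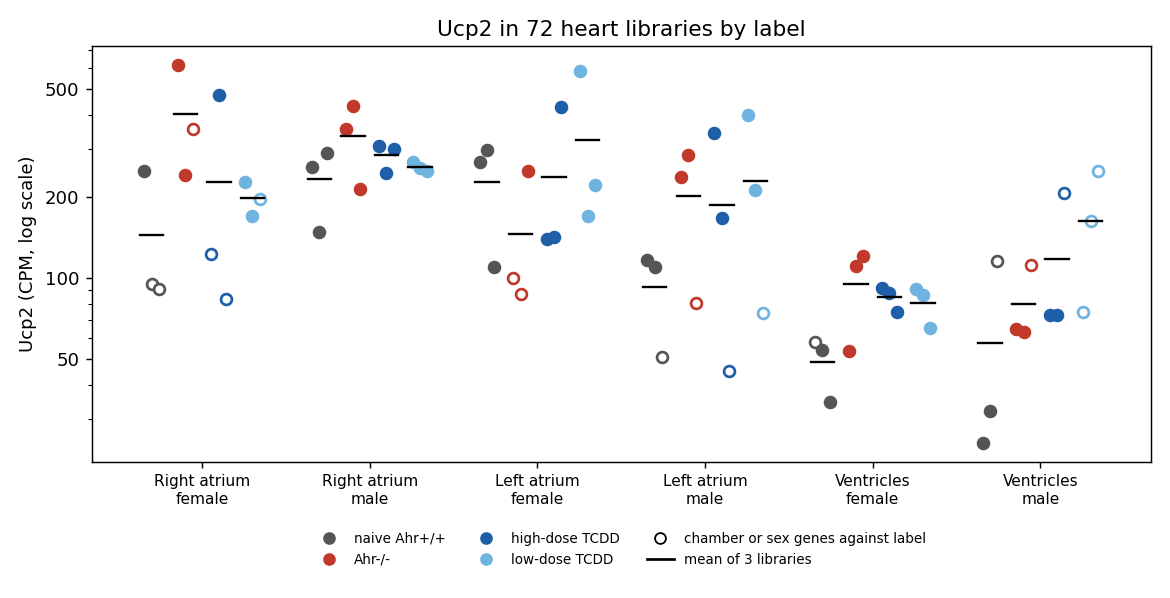
*Ucp2* in each library (CPM, log axis) by labelled chamber, sex and condition, with a bar at the mean of 3 libraries and hollow points for the 19 libraries whose chamber or sex genes went against the label. Right atrial libraries reach 613 CPM and ventricular ones 249.6 CPM, and the naïve ventricular libraries include the lowest value of 24.5 CPM.

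*Ucp2* tended to be higher in atrial than in ventricular libraries. In the 6 naïve right atrial libraries it ranged from 91.1 to 291 CPM (median 198), in left atrium from 51.0 to 298 (median 113) and in ventricles from 24.5 to 116 (median 44.3). The naïve groups overlapped, and in the fit of 18 libraries with sex as a term the right atrium exceeded the ventricles by 1.73 ± 0.42 on the log2 scale (SE; edgeR adjusted p = 0.116), the left atrium by 1.44 ± 0.42 (adjusted p = 0.403) and the right atrium exceeded the left by 0.29 ± 0.42 (adjusted p = 1). These missed the threshold of 0.05, and edgeR called 0.00664%, 0% and 0% of 15060 genes in these contrasts. DESeq2 called the first (adjusted p = 0.0042, with 3.5% of genes called). Without the doubted libraries the differences were 2.71 (adjusted p = 0.000199) and 2.01 (adjusted p = 0.00122), where 17.8% and 11.3% of genes were called. That set was chosen in part by *Myl4*, whose Pearson correlation with *Ucp2* was 0.77 over 72 libraries. The rule thus favoured a wider difference, and these p values are no independent test of chamber. Over all 72 libraries by label the differences were 1.36 and 1.03 (adjusted p = 3.55e-06 and 0.000853), with 32.7% and 19.8% of genes called. Chambers of the same hearts entered that fit as independent.

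The label and the *Myl4* level can be set side by side. The 40 atrial libraries with *Myl4* of at least 100 CPM had 83.6 to 613 CPM of *Ucp2* (median 248), whereas the 8 atrial libraries under that limit had 45.2 to 122 CPM (median 84.0). The 17 ventricular libraries under the limit had 24.5 to 120.1 CPM (median 72.7), and the 7 above it 57.8 to 249.6 CPM (median 116). The medians of *Ucp2* thus followed *Myl4* within each label. These sets were formed from *Myl4* and are a description with no test.

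**Figure D2:**
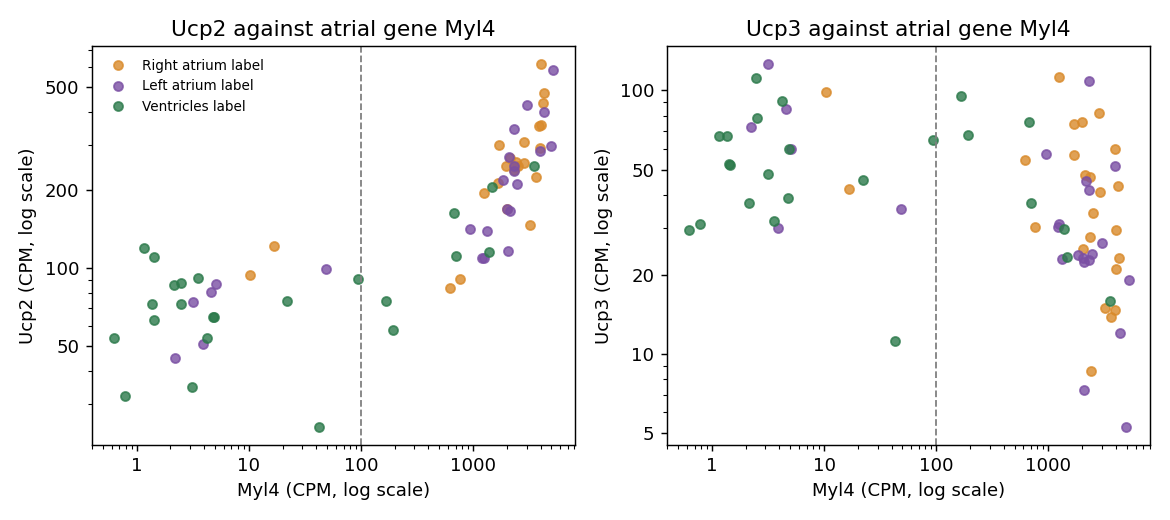
*Ucp2* (left) and *Ucp3* (right) against *Myl4* in 72 libraries (CPM, log axes), coloured by labelled chamber, with a dashed line at 100 CPM of *Myl4*. *Ucp2* is higher in the 40 atrial libraries right of the line (median 248 CPM) than in the 17 ventricular ones left of it (median 72.7 CPM), and *Ucp3* lies lower in the atrial ones.

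*Ucp3* lay the other way. It had a median of 30.0 CPM in the 40 atrial libraries with *Myl4* of at least 100 CPM, 66.4 CPM in the 8 atrial libraries below it and 52.1 CPM in the 17 ventricular libraries below it. In naïve hearts its log2 difference was -0.62 ± 0.55 for right atrium against ventricles and -0.83 ± 0.57 for left atrium (adjusted p = 0.563 and 0.555), and the naïve ranges overlapped widely. It was called lower in both atria only over all conditions without the doubted libraries (53 libraries), by -0.95 (adjusted p = 0.00507) and -1.15 (adjusted p = 0.000412), beside 52.3% and 49.9% of all genes called. In that fit *Ucp2* was higher by 1.90 and 1.65. Its libraries were chosen in part by *Myl4*, whose Pearson correlation with *Ucp3* was -0.49 over 72 libraries. The fit is therefore no independent test of chamber for either gene. The Pearson correlation of *Ucp3* with *Ucp2* on log2 CPM was -0.29 over 72 and 0.01 over the 24 ventricular libraries, as a description over libraries that share chambers and hearts.

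The question of the design is whether loss of AHR or TCDD before birth alters expression in the adult heart. Each sex and chamber has its own 3 naïve libraries, which the 3 comparisons of that sex and chamber share. Of the 18 comparisons per gene, edgeR called 1 for *Ucp2* and 0 for *Ucp3*. At an unadjusted p under 0.05 there were 7 for each gene, all higher for *Ucp2* and 6 of 7 higher for *Ucp3*. Over all genes such a p was found for 235 of 14686 in male low-dose left atrium, the fewest. The most were 5118 of 14006 in female high-dose ventricles, so such a p was common there. DESeq2 called 2 for *Ucp2* and 3 for *Ucp3*, and over all genes it called between 0 and 3575 per comparison. The share of all genes that edgeR called was 0% in 16 of the 18 comparisons, 0.0216% in female *Ahr*-/- ventricles and 23.7% in female high-dose ventricles, and the 1 call belongs to that last comparison.

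**Figure D3:**
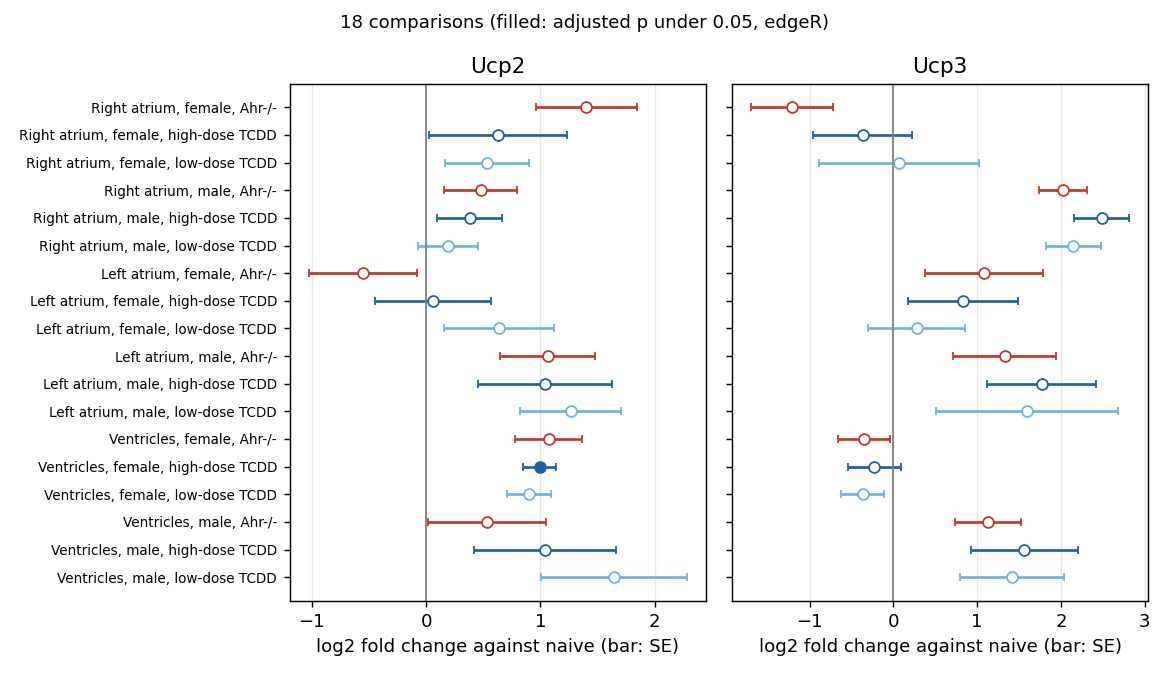
Log2 fold changes of *Ucp2* (left) and *Ucp3* (right) against naïve libraries of the same chamber and sex, with SE bars, red for *Ahr*-/-, dark blue for high and light blue for low dose; the filled point passed an adjusted p of 0.05 in edgeR. The filled point is *Ucp2* in female high-dose ventricles, and the *Ucp3* points of male right atrium lie at 2.03 to 2.49.

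In female ventricles *Ucp2* was higher after the high dose. The naïve libraries had 57.8, 53.9 and 34.7 CPM and the high-dose libraries 92.1, 88.0 and 75.0 CPM. The groups did not overlap, and the same held within each library series, where libraries 1 to 48 gave 53.9 and 57.8 against 88.0 and 92.1 CPM and libraries 49 to 72 gave 34.7 against 75.0 CPM. The log2 fold change was 0.99 ± 0.15 (edgeR adjusted p = 0.00102), rank 139 of 14006 genes. With 23.7% of genes called there and 11.7% lying above the naïve range without overlap, a call was common in this comparison. The call held under the 8 other settings tried (adjusted p at most 0.0424) and without each library in turn. The atrial marker sum (*Myl4*, *Myl7*, *Sln*, *Nppa*) was 57.3 to 587 CPM in the naïve and 30.5 to 65.2 CPM in the high-dose libraries. The macrophage sum of 8 markers overlapped, at 232 to 330 and 199 to 356 CPM, and the T cell sum was at most 6.94 CPM. The ventricular sum (*Myl2*, *Irx4*, *Myl3*) was 6360 to 7191 CPM in the naïve and 7743 to 8297 CPM in the high-dose libraries, and its part in the result was not tested.

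The low dose gave similar levels in female ventricles but no edgeR call. *Ucp2* was at 90.6, 86.3 and 65.1 CPM, again above all 3 naïve libraries. The log2 fold change was 0.90 ± 0.19 (edgeR adjusted p = 0.140, rank 61 of 13966), with 0% of genes called and 6.81% above the naïve range; DESeq2 called it (adjusted p = 0.00464, with 4.49% of genes called). In *Ahr*-/- females *Ucp2* was at 53.8, 111 and 120.1 CPM, with library 39 inside the naïve range. The log2 fold change of *Ucp2* was 1.07 ± 0.30 (adjusted p = 0.490). Leaving out each library in turn gave 0.76 to 1.37, with edgeR adjusted p from 0.00832 to 0.890. The lowest of these p values was that without library 39. Leaving out a library for its own *Ucp2* value widens the difference, so that p value is no independent test. The sum of 7 T cell markers was 1.84 to 2.59 CPM in naïve, 2.82 to 5.83 in low-dose and 2.97 to 4.61 CPM in *Ahr*-/- female ventricles, and its part in these differences was not tested.

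Male ventricles held the most doubted libraries. *Ucp2* was at 24.5, 32.2 and 116 CPM in naïve, 64.7, 62.9 and 112 CPM in *Ahr*-/-, 73.1, 72.7 and 207 CPM in high-dose and 74.8, 163 and 249.6 CPM in low-dose males. The highest library of each group (53, 59, 65 and 71) had *Myl4* over 100 CPM and sex genes of females. The log2 fold changes were 0.53 ± 0.51, 1.04 ± 0.62 and 1.65 ± 0.64, and none passed (adjusted p = 0.861, 0.584 and 0.329). Without the doubted libraries, 2 against 2 remained, and the fold changes of *Ahr*-/- and high-dose males were 1.26 (adjusted p = 0.044, 0.622% of genes called) and 1.40 (adjusted p = 0.0118, 15.9% called). All 3 low-dose male libraries were doubted; with libraries 45 and 46, whose sex genes matched the label and whose ventricular genes were high, kept by a rule added after the data were seen, it was 2.01 (adjusted p = 0.0416, 3.44% called).

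With both sexes in a fit of 12 libraries, *Ucp2* in ventricles rose by 1.27 ± 0.36 after the low dose (edgeR adjusted p = 0.0371). High-dose and *Ahr*-/- ventricles gave 1.02 ± 0.33 (adjusted p = 0.0566) and 0.80 ± 0.33 (adjusted p = 0.366), and the share of all genes called was 12.9%, 13.1% and 0.0347% in these comparisons. The low-dose call was lost with library size only (1.11, adjusted p = 0.0707), with no filter on low counts (1.27, adjusted p = 0.0626) and without the doubted libraries (0.99, adjusted p = 0.537, 0% of genes called), where only the 3 female libraries of the low dose remained. It held with libraries 45 and 46 kept (17.3% of genes called). The high-dose difference passed without the doubted libraries (1.24, adjusted p = 0.00475, 17.9% of genes called). In the atria the same fits called neither gene, with 0.00655%, 0.0732% and 0% of genes called in right atrium for *Ahr*-/-, high and low dose and 0.0132%, 0% and 0% in left atrium.

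Atrial *Ucp2* varied up to several fold within groups. In right atrium the male groups had 148 to 291 CPM in naïve, 214 to 434 in *Ahr*-/-, 245 to 307 in high-dose and 248 to 268 in low-dose mice, all overlapping. In female right atrium *Ucp2* was at 248, 94.6 and 91.1 CPM in naïve and 613, 240.5 and 356 CPM in *Ahr*-/- libraries, a log2 fold change of 1.40 ± 0.44 (adjusted p = 0.817). The 2 lower naïve libraries of that group were doubted, and without the doubted libraries the value was 0.76, which rests on a single naïve library and is given with no test. In these naïve and *Ahr*-/- groups the ventricular sum was 1685 to 9402 and 345 to 3253 CPM, the atrial sum 60.1 to 15929 and 11597 to 17816 CPM and the sum of 4 adipocyte markers 1.18 to 316 and 320.0 to 673 CPM. Only the adipocyte sums did not overlap, and the part of these tissues in the differences of *Ucp2* and *Ucp3* was not tested. In left atrium the fold changes lay between -0.55 (female *Ahr*-/-) and 1.27 (male low-dose), with adjusted p from 0.526 to 0.999.

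**Figure D4:**
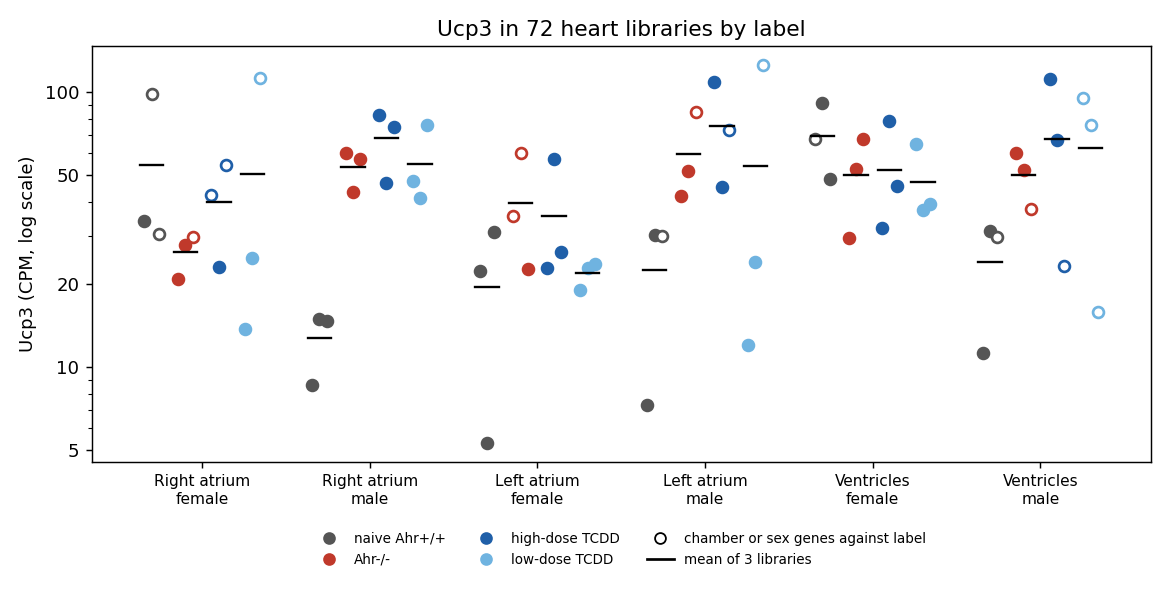
*Ucp3* in each library (CPM, log axis) by labelled chamber, sex and condition, drawn as in the plot of *Ucp2*. The 3 naïve male right atrial libraries (8.61 to 15.0 CPM) lie below the 9 other male right atrial libraries (41.2 to 82.4 CPM).

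*Ucp3* differed most in the male right atrium. The naïve libraries had 8.61, 15.0 and 14.7 CPM, the *Ahr*-/- libraries 59.9, 43.4 and 57.0, the high-dose libraries 82.4, 46.9 and 74.8 and the low-dose libraries 47.6, 41.2 and 76.1 CPM. None of the 9 overlapped the naïve range, and none of the 12 libraries was doubted by *Myl4* or sex genes. That rule does not check right against left. *Bmp10* was at 4.51 CPM in the lowest naïve and 1.45 CPM in the lowest low-dose library, both under 10 CPM. The *Ahr*-/- and high-dose libraries had at least 61.9 and 556 CPM. The naïve group had the lowest mean of the 24 groups, and its 3 libraries serve all 3 comparisons. The log2 fold changes were 2.03 ± 0.28, 2.49 ± 0.33 and 2.15 ± 0.33, and by p *Ucp3* ranked 4 of 14954, 2 of 14785 and 1 of 14892 genes. Adjusted over all genes, edgeR called none of them (adjusted p = 0.165, 0.151 and 0.942), and it called 0% of genes in each. The share of genes above the naïve range was 7.76%, 3.73% and 5.03%.

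Other tools gave calls. DESeq2 called *Ucp3* in all 3 comparisons (adjusted p = 6.54e-07, 1.73e-09 and 5.92e-06), where it called 0.164%, 0.413% and 0.0683% of genes. For the high dose, edgeR called it with no filter on low counts (adjusted p = 0.0221, 0.0369% of genes) and with all 4 groups in one fit (adjusted p = 0.0199, 0.026% of genes). Markers of ventricle moved with the groups. The ventricular sum was 1372 to 2863 CPM in naïve, 3311 to 4734 in *Ahr*-/-, 2294 to 4563 in high-dose and 3198 to 3629 CPM in low-dose libraries, and the atrial sum was 15537 to 16345 CPM in naïve, 5944 to 23022 in *Ahr*-/-, 8619 to 14598 in high-dose and 5320 to 11091 CPM in low-dose libraries. The macrophage sum was 477 to 601 CPM in naïve and 671 to 791 CPM in *Ahr*-/- libraries, the sum of 3 brown adipocyte markers 3.93 to 6.05 and 8.77 to 80.8 CPM and the sum of 4 B cell markers 1.25 to 3.48 and 5.65 to 16.8 CPM. These 3 sums did not overlap between naïve and *Ahr*-/- libraries, whereas each overlapped the naïve range in both exposed groups. The part of these tissues in the *Ucp3* difference was not tested. The sum of 8 skeletal muscle markers was at most 44.4 CPM in these 12 libraries and overlapped between naïve and *Ahr*-/- and between naïve and low dose; it was 30.9 to 44.1 CPM in naïve and 15.3 to 24.3 CPM in high-dose libraries.

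In female right atrium *Ucp3* lay the other way in *Ahr*-/- mice. Naïve libraries had 34.1, 98.4 and 30.4 CPM and *Ahr*-/- libraries 20.9, 27.8 and 29.6 CPM, without overlap, as 1.83% of genes did in this direction. The log2 fold change was -1.21 ± 0.49 (adjusted p = 0.817). The highest naïve library (4) had *Myl4* at 10.3 CPM, and without it the fold change was -0.38. The sex-by-group term was 3.25 ± 0.62 on the log2 scale (unadjusted p = 0.00019), the smallest p of 15529 genes, with an edgeR adjusted p of 0.873 and 0% of genes called. DESeq2 called it (adjusted p = 0.00229, 0.0194% of genes), and without the 3 doubted libraries the term was 2.53, which rests on a single naïve female library and is given with no test. The marker sums of these female groups are those given for *Ucp2*, with adipocyte markers higher in each *Ahr*-/- library than in the naïve ones.

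*Ucp3* effects were more positive in males than in females in all 9 sex-by-group tests, of which 5 had an unadjusted p under 0.05 and 0 passed adjustment in edgeR. Over all genes such a p was found for 135 of 14536 to 703 of 15529 in these tests. Of the 8 tests that could be made without the doubted libraries, 7 were above 0; the low-dose left atrium turned to -0.37. edgeR called 0% of genes in each of these 9 tests. *Ucp2* was above 0 in 5 of 9 and had 1 such p. In the high-dose right atrium the *Ucp3* term was 2.86 ± 0.75, rank 2 of 15240 genes (adjusted p = 1). The 9 tests use only 3 sets of naïve libraries per sex.

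In the other male chambers *Ucp3* also tended to lie above naïve. In left atrium naïve males had 7.29, 30.3 and 29.9 CPM, *Ahr*-/- 41.9, 51.7 and 85.0, high-dose 109, 45.4 and 72.7 and low-dose 12.0, 24.0 and 125 CPM. The *Ahr*-/- and high-dose libraries lay above the naïve range (5.21% and 7.3% of genes did), with log2 fold changes of 1.33 ± 0.61 and 1.77 ± 0.65 (adjusted p = 0.928 and 0.394). Each group held 1 library (51, 57, 63 and 69) with *Myl4* under 100 CPM, and the low-dose value of 125 CPM was such a library; the low-dose fold change of 1.59 ± 1.09 (adjusted p = 0.999) fell to -0.10 without these libraries.

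In male ventricles *Ucp3* was at 11.2, 31.1 and 29.8 CPM in naïve, 59.9, 52.1 and 37.4 in *Ahr*-/-, 112, 67.1 and 23.4 in high-dose and 95.4, 76.1 and 15.9 CPM in low-dose mice. Only *Ahr*-/- lay above the naïve range, as 3.87% of genes did. The log2 fold changes were 1.13 ± 0.39, 1.56 ± 0.64 and 1.42 ± 0.62 (adjusted p = 0.827, 0.531 and 0.367). Libraries 65 and 71, the lowest of the exposed groups, had *Myl4* at 1469 and 3533 CPM. Without the doubted libraries the high-dose difference passed (2.13, adjusted p = 0.0373), in a fit that called 15.9% of genes. The endothelial sum of 5 markers was 620.2 to 833 CPM in naïve and 873 to 884 CPM in *Ahr*-/- libraries, and its part was not tested.

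Female ventricles and left atrium showed no call for *Ucp3*. In female ventricles it was at 67.6, 91.4 and 48.2 CPM in naïve mice and between 29.5 and 78.7 CPM in the 9 others, with log2 fold changes of -0.35 ± 0.31, -0.23 ± 0.32 and -0.37 ± 0.26 for *Ahr*-/-, high and low dose (adjusted p = 0.672, 0.659 and 0.488). In the high-dose comparison *Ucp2* was called while *Ucp3*, its neighbour, was not. In female left atrium naïve libraries had 22.3, 5.30 and 31.0 CPM, and the fold changes were 1.08 ± 0.71, 0.83 ± 0.66 and 0.28 ± 0.58 (adjusted p = 0.482, 0.719 and 0.840).

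The other carriers stood apart in level. *Ucp1* was at 0 in 29 libraries, where a count of 0 allows at most 0.253 CPM even in the smallest library of the series, and it was over 10 CPM in 19 libraries, up to 610 CPM, 16 of them atrial by label. Those 19 libraries had 91.1 to 613 CPM of *Ucp2* (median 214), and among the 40 atrial libraries with *Myl4* of at least 100 CPM the median of *Ucp2* was 220.1 CPM in the 15 with *Ucp1* over 10 CPM and 255 CPM in the 25 others. *Ucp3* had medians of 27.8 and 41.2 CPM in the same sets. The minor relatives *Slc25a27* (UCP4), *Slc25a14* (UCP5) and *Slc25a30* were at 1.15 to 7.45, 1.14 to 7.99 and 4.56 to 24.1 CPM. The ATP/ADP exchangers *Slc25a4* and *Slc25a5* were at 1223 to 6141 and 148 to 336 CPM.

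The 5 lists of related genes were counted beside the members, leaving out *Ucp2* and *Ucp3*. In 17 of the 18 comparisons, none of their genes passed in edgeR. In female high-dose ventricles, 6 of 17 PPAR-driven fatty acid genes tested were higher and 0 lower (list median 0.17, all genes 0.01), 4 of 10 mitochondrial antioxidant genes were higher and 2 lower, 3 of 13 transcription factors and coactivators were higher and 2 lower, 1 of 5 carriers (*Slc25a30*) was lower, and 0 of 3 adrenergic and thyroid input genes passed. The smallest adjusted p values belonged to *Sirt3*, a mitochondrial deacetylase (log2 fold change 1.05 ± 0.13, adjusted p = 0.00053), *Gpx1*, a glutathione peroxidase (1.05 ± 0.14, adjusted p = 0.000706), *Fabp3*, the heart fatty acid binding protein (1.20 ± 0.17, adjusted p = 0.000788), and *Txn2*, mitochondrial thioredoxin (0.92 ± 0.14, adjusted p = 0.00107). These counts stand beside the 23.7% of all genes called in that comparison.

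With both sexes after the low dose, where *Ucp2* was also called, 3 of 10 antioxidant genes were higher and 0 lower, 1 of 17 fatty acid genes was higher, and 2 of 13 factors were higher and 2 lower, beside 12.9% of all genes called. *Txn2* (0.89 ± 0.15, adjusted p = 0.00999), *Prdx5*, a peroxiredoxin (1.01 ± 0.20, adjusted p = 0.0113), and *Gpx1* (0.99 ± 0.20, adjusted p = 0.013) rose, and *Ppara*, the fatty acid sensing receptor of heart, fell (-0.73 ± 0.13, adjusted p = 0.0103). In that comparison 0% of genes were called without the doubted libraries, and these calls were lost with the rest. After the high dose with both sexes the counts were 3 of 10 antioxidant genes higher and 0 lower, 1 of 17 fatty acid genes higher, and 1 of 13 factors higher and 3 lower, beside 13.1% of all genes called. No carrier and no adrenergic or thyroid gene passed in either of these.

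*Pdk4*, *Ppara* and *Ppargc1a*, a coactivator of mitochondrial genes, were followed in ventricles as known partners of *Ucp3*. *Pdk4* did not pass in any of the 6 comparisons, with log2 fold changes from -0.66 ± 0.27 in low-dose females to 0.74 ± 0.58 in high-dose males. *Ppara* lay below naïve in all 6, from -0.18 to -0.88, and passed in high-dose females (-0.39 ± 0.13, adjusted p = 0.0414). *Ppargc1a* lay between -1.01 and 0.11 and did not pass.

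In male right atrium, where *Ucp3* stood apart, 16, 17 and 17 of 17 PPAR-driven fatty acid genes lay above 0 in *Ahr*-/-, high-dose and low-dose mice, of which 7, 7 and 9 had an unadjusted p under 0.05 and 0 passed. Over all genes such a p was found for 765 of 14954, 800 of 14785 and 657 of 14892. The list medians were 0.51, 0.74 and 0.64 on the log2 scale beside -0.0066, -0.0013 and -0.0128 over all genes. Of 10 mitochondrial antioxidant genes, 8, 10 and 10 also lay above 0, with medians of 0.31, 0.45 and 0.36. Between naïve chambers the fatty acid list lay lower in right atrium than in ventricles (2 of 17 genes above 0, median -0.51). The ventricular sum of the naïve male libraries lay below that of the *Ahr*-/- and low-dose ones, and its part was not tested. *Angptl4*, a lipase inhibitor, was at 0.670 to 2.50 CPM in naïve libraries and at 15.2 to 22.5, 2.94 to 15.8 and 3.94 to 9.05 CPM in the others (log2 fold changes 3.37 ± 0.45, 2.09 ± 0.69 and 1.92 ± 0.53). *Pdk4* was at 188 to 430.5 CPM in naïve and 691 to 1726, 432 to 1910 and 322 to 596 CPM in the others, so that only the low-dose range overlapped the naïve one. These genes share the 3 naïve libraries with *Ucp3*, and none passed adjustment.

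The 4 genes on each side of the pair did not follow a common course. *Pgm2l1*, *P4ha3*, *Ppme1* and *C2cd3* lie before *Ucp3*, and *Dnajb13*, *Coa4*, *Mrpl48* and *Rab6a* after *Ucp2*. In female high-dose ventricles *Rab6a* (-1.06 ± 0.15, adjusted p = 0.001) and *Pgm2l1* (-0.83 ± 0.17, adjusted p = 0.00488) fell and *Ppme1* rose (0.49 ± 0.12, adjusted p = 0.0129), while *C2cd3*, *Coa4* and *Mrpl48* lay between 0.01 and 0.28 and did not pass. *Mrpl48* and *Rab6a* overlap at their ends, so their counts are uncertain where reads fall there. *P4ha3* and *Dnajb13* were too low to be tested in that comparison. In male right atrium the neighbours other than *Ucp2* that were tested lay between -1.31 and 0.50, beside 2.03 to 2.49 for *Ucp3*, and none passed.

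The genes most like each member were listed by Pearson correlation of log2 CPM, as a description. Over the 24 ventricular libraries *Ucp2* was most like *Rcn3* (0.92), *Rarres2* (0.91), *Rtn4rl1* (0.89), *Igsf8* (0.88) and *H2-T23* (0.88) among 11602 genes. Over 72 libraries it was most like *Stard10* (0.91), *Rtn4rl1* (0.90), *Mdfi* (0.90), *Gltp* (0.89) and *Aldh16a1* (0.89) among 14002 genes, and *Stard10* itself ranged from 10.1 to 927 CPM. The points share chambers, hearts and the doubted libraries.

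*Ucp3* had fat-burning genes among its nearest. Over the 24 ventricular libraries they were *Mlycd*, malonyl-CoA decarboxylase, which relieves the block on fatty acid entry into mitochondria (0.86), *Plin5*, a lipid droplet protein of oxidative tissue (0.86), *Dcaf4* (0.82), *Mgmt* (0.82) and *Tmem88* (0.81). Over 72 libraries they were *Slc25a22*, a mitochondrial glutamate carrier (0.85), *Mlycd* (0.84), *Plin5* (0.83), *Iba57* (0.82) and *Fbp2*, the muscle fructose bisphosphatase (0.82). *Pdk4* stood at 0.68 over 72 libraries (rank 316) and 0.43 over the 24. In male right atrium *Mlycd* was at 31.2 to 37.1 CPM in naïve and 42.2 to 75.4 CPM in the others, and *Plin5* at 12.3 to 37.9 and 41.1 to 80.6 CPM. Both genes were picked for likeness to *Ucp3* over libraries that include those of male right atrium. Both also belong to the PPAR-driven fatty acid genes counted above, so these values add no separate support.

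**Figure D5:**
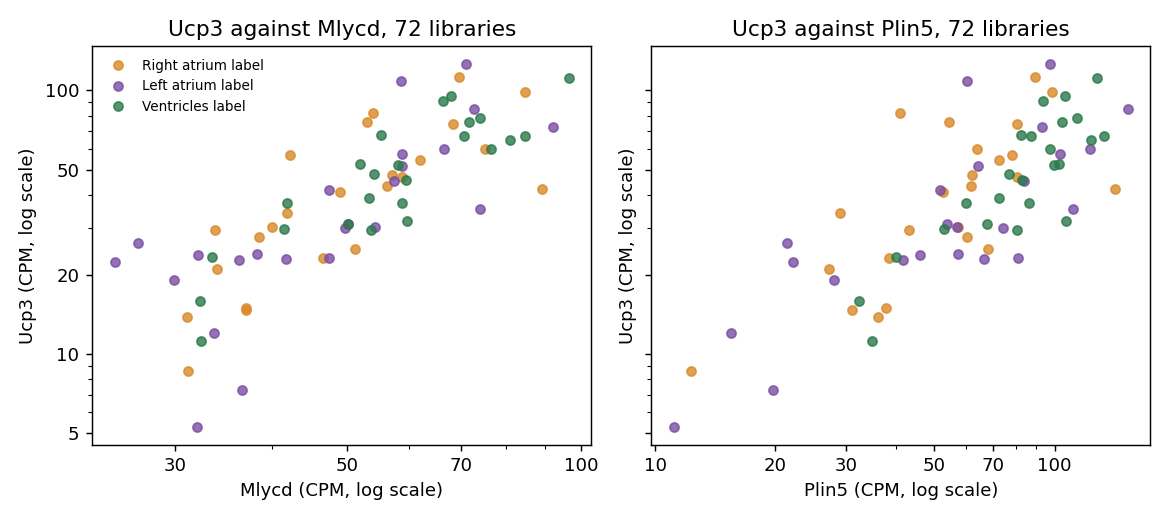
*Ucp3* against *Mlycd* (left) and *Plin5* (right) in 72 libraries (CPM, log axes), coloured by labelled chamber. *Ucp3* rises with each gene (Pearson 0.84 and 0.83 on log2 CPM).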

How the data were processed

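The authors made poly-A libraries, read 50 cycles from single ends, aligned with TopHat to mm10 and counted reads on coding regions, per the study's methods; CASAVA 1.8 is named in the submitters' processing notes. The annotation, strand setting and treatment of multiply mapped reads are not given in the sources used here. The deposited values were raw counts per Entrez gene without normalization; 82 of 24237 identifiers had no RefSeq symbol. Groups followed the labels, whose treatment field names TCDD for all 72 samples and whose doses carry no unit; exposure was taken from the study's methods. The labels state no pairing of libraries, and none was assumed from their numbers.

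CPM used each library's total. Tests used edgeR 4.0.16 (R 4.3.3) quasi-likelihood, TMM, filterByExpr (minimum count 10, total 15), robust dispersion, and Benjamini-Hochberg adjustment over all genes, called under 0.05. SE is the fold change divided by the square root of F. DESeq2 1.42.0 was an alternative. The fits were tested on simulated data. Adjusted p is edgeR's unless named otherwise. For a condition against naïve within a sex and chamber, the p values rest on 3 libraries per group, or fewer where libraries were left out. The fits of both sexes, of sex-by-group terms and of chambers pooled more libraries. In the chamber fits, chambers of the same hearts entered as independent, so their p values do not measure the spread between independent animals.

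Alternatives were RLE normalization, library size only, no filter, a term for the library series (1 to 48 against 49 to 72), all 4 groups in one fit, doubted libraries left out, and each library left out in turn. A library was doubted when an atrial label had *Myl4* under 100 CPM, a ventricular label over 100 CPM, or sex genes were of the other sex; a second rule that kept ventricles with high ventricular genes was added after seeing the data and left out 16. Lists named were carriers, transcription factors and coactivators, PPAR-driven fatty acid genes, mitochondrial antioxidant genes, and adrenergic and thyroid inputs. Genes named were both members, carriers, *Pdk4*, *Ppara* and *Ppargc1a*, up to 4 list genes of smallest adjusted p where a member passed, 5 most alike genes (CPM of at least 1 in 24 or more libraries, prior count 2) and 4 neighbours per side; *Angptl4*, and the right atrial values of *Mlycd* and *Plin5*, were chosen after their values were seen. The members and lists were chosen with earlier results of these data known.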

Additional observations from a re-analysis of the deposited data

Results flagged for a closer look

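*Ucp3* in the right atrium of *Ahr*-/- mice stood out because the 3 male libraries all lay above the naïve males (43.4 to 59.9 against 8.61 to 15.0 CPM) and the 3 female libraries all lay below the naïve females (20.9 to 29.6 against 30.4 to 98.4 CPM). The test of the difference itself, the sex-by-group term, gave 3.25 ± 0.62 on the log2 scale with an edgeR adjusted p of 0.873 over 15529 genes, so it did not pass. Of the 6 female libraries, 3 were doubted by their chamber or sex genes (4, 50 and 56), and the term was 2.53 without them, with a single naïve female library left.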

How the results depend on the processing

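Of the values under other settings, 535 kept direction and side of the threshold, 18 turned direction, 30 gained a call and 3 lost one; without 1 library, 407 kept both, 24 turned direction and 1 gained a call. No paired analysis was made, because the labels do not state which libraries share a heart. For the high dose in female right atrium no fit without the doubted libraries could be made, and for the low dose in male ventricles none of the low-dose libraries was left under the first rule. The causes of these changes were not tested. With library size only, the median over all genes moved by -0.165 and -0.151 (log2) in female high-dose and low-dose ventricles, -0.116 in low-dose ventricles of both sexes, and 0.135 and 0.112 for right and left atrium against ventricles.

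Calls gained with DESeq2 were *Ucp3* in male right atrium (2.03 for *Ahr*-/-, 2.49 for high and 2.15 for low dose) and its sex-by-*Ahr*-/- term (3.25), and *Ucp2* in female low-dose ventricles (0.91), in high-dose ventricles of both sexes (1.02) and in right atrium against ventricles (1.70). *Ucp3* in high-dose male right atrium was also called without the filter (2.48) and with 4 groups in one fit (2.49). *Ucp2* in high-dose ventricles of both sexes was called with the library series as a term (1.03), and the share of all genes called in that fit is not given here. In the DESeq2 fits with a gained call for *Ucp2*, calls were common. They took in 4.49% of genes in female low-dose ventricles, 2827 genes in high-dose ventricles of both sexes and 3.5% of genes in right atrium against ventricles. *Ucp2* in low-dose ventricles of both sexes lost its call with library size only (1.11), without the filter (1.27) and without the doubted libraries (0.99).

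Without the doubted libraries, under the first or the added rule, calls were gained for *Ucp2* in male *Ahr*-/- (1.26) and high-dose ventricles (1.40), in male low-dose ventricles (2.01, added rule), in *Ahr*-/- ventricles of both sexes (1.15, added rule) and in high-dose ventricles of both sexes (1.24 and 1.13), and for *Ucp3* in male high-dose ventricles (2.13). For chambers, *Ucp2* was called at 2.71 and 2.64 for right atrium and 2.01 and 1.92 for left atrium against ventricles. Over all 72 libraries it was called at 1.36 and 1.03, and over those not doubted at 1.90 and 1.65, where *Ucp3* was called at -0.95 and -1.15. The sets without doubted libraries were chosen in part by *Myl4*, a chamber gene, and are no independent test of chamber. For the added-rule values of 1.15, 1.13, 2.64 and 1.92 the share of all genes called is not given here.

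Without the doubted libraries a single naïve library was left in female right atrium and a single *Ahr*-/- library in female left atrium, so values there carry no test. Directions turned, without a call, for *Ucp2* without the doubted libraries in female low-dose right atrium (-0.30), in female *Ahr*-/- left atrium (0.20), in the sex-by-low-dose term of right atrium (0.50) and in the sex-by-*Ahr*-/- term of ventricles (0.10 and 0.19), and with the library series as a term in female high-dose left atrium (-0.10). For *Ucp3* they turned in female low-dose right atrium (-0.10 with library size only, -0.77 without the doubted libraries, -0.74 with the series term), and, without the doubted libraries, in male low-dose left atrium (-0.10), its sex-by-dose term (-0.37) and low-dose ventricles of both sexes (-0.42).

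Leaving out 1 library gave, for *Ucp2*, -0.29 to 1.14 in female high-dose right atrium, -0.0436 to 0.42 in male low-dose right atrium, -0.69 to 0.31 in female high-dose left atrium, 0.76 to 1.37 in female *Ahr*-/- ventricles, and, for sex-by-group terms, -0.73 to 0.69 in high-dose right atrium, -0.88 to 0.38 in *Ahr*-/- ventricles and -0.48 to 0.97 in high-dose ventricles. For *Ucp3* it gave -0.78 to 0.46 and -1.62 to 0.89 in high-dose and low-dose female right atrium, -0.18 to 0.90 and -0.57 to 2.11 in low-dose female and male left atrium, -0.55 to 0.0481 in female high-dose ventricles, and -0.35 to 0.74 and -0.84 to 1.85 for the sex terms of *Ahr*-/- and low-dose left atrium.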
